A study of Mus musculus with 6 samples.

Results

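The 32 genes described here belong to the unfolded protein response of the endoplasmic reticulum (ER) and to the ATF4 programme joined to it. They were chosen by gene symbol from a list of the pathway's sensors, factors, chaperones and ATF4 targets, and all 32 had a probe set among the 18193 named genes of the array. The samples were neutrophils from the peripheral blood of 3 phd3 null and 3 wild-type mice on a C57 background. Each sample came from 1 mouse by negative magnetic selection and was kept in hypoxia at 3% oxygen for 4 h before RNA was taken. The mice of both genotypes shared the hypoxic culture, and no sample at normal oxygen was analysed here. PHD3, the protein of the gene now called Egln3, is an oxygen-dependent prolyl hydroxylase. The labels give no age or sex of the mice and do not say how the phd3 allele was made or whether it is lost in neutrophils alone. The values are MAS5 signals, a linear intensity that combines the probes of a probe set on 1 array, and each gene is represented by its brightest probe set.

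When unfolded protein builds up in the ER, 3 membrane sensors respond. IRE1 (Ern1) splices the mRNA of the transcription factor XBP1, ATF6 is cleaved to release a transcription factor, and PERK (Eif2ak3) phosphorylates the initiation factor eIF2-alpha, which lowers general translation and favours translation of ATF4. XBP1 and ATF6 drive chaperone and ER degradation genes, while ATF4 drives amino acid synthesis genes, Ddit3 and feedback genes. The array measures mRNA, so it shows neither the splicing of Xbp1 nor the phosphorylation of PERK or eIF2-alpha.

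Same-numbered samples of both genotypes share a code in the labels and are treated below as pairs 1 to 3. Egln3 signal was 87.2, 29.6 and 73.5 in phd3 null samples 1 to 3, against 2088.0, 1733.9 and 327.0 in wild-type samples 1 to 3. The neutrophil markers S100a8 and S100a9 stood between 11102.8 and 20428.6 in phd3 null samples and between 17949.0 and 25479.7 in wild-type samples. Of the 9 neutrophil markers measured, 3 had a mean difference above 0 (Csf3r, Mmp9 and Ltf), unlike S100a8 and S100a9. Cxcr2 stood at 840.1, 978.9 and 25.6 in phd3 null samples, against 558.9, 836.6 and 227.0 in wild-type samples. Summed B cell marker signal (5 genes) was 2885.0 in phd3 null sample 3 and 2286.7 in wild-type sample 3, against 243.1 to 476.1 on the other 4 arrays. These arrays of pair 3 also correlated less with the rest, with a median of 0.763 for phd3 null and 0.798 for wild type, against 0.827 to 0.846 for the other 4. Summed natural killer (NK) cell marker signal was 547.8, 2981.2 and 2135.3 in phd3 null samples, against 1403.1, 6854.7 and 3174.8 in wild-type samples, and 0 of its 6 genes had a mean difference above 0. Every marker has a signal above 0, since the lowest MAS5 signal in the table is 0.2.

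None of the 32 genes differed between genotypes by the test, although most had a lower mean in phd3 null neutrophils. Differences were taken on log2(signal + 16), as phd3 null minus wild type, and tested with limma over the 10960 genes above a filter on dim signals, which all 32 genes passed. In limma 0 of 32 genes had an adjusted p under 0.05, with or without the pair number as a block, where 0% of all tested genes were called without the block and 0.0182% with it. At an unadjusted p under 0.05 there were 0 of 32 genes without the block, where the tested genes had 1.74%, and 1 of 32 with it, where the tested genes had 5.62%. The targeted gene Egln3 itself, at a difference of -3.85 (SE 0.65), was not called without the block (limma, adjusted p = 0.9996) and was called with it (adjusted p = 0.001405). A missing call without the block is therefore no sign that a gene is level. The smallest adjusted p in limma among the 32 genes was 0.9996 without the block and 0.8795 (for Eif2ak3) with it. The 95% interval of the difference included 0 for 32 of 32 genes without the block, and lay within 1 log2 unit of 0 for 11 of them. With the block these counts were 31 and 23. For the other 21 genes a difference of 1 log2 unit lay inside the interval without the block.

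By direction, 27 of 32 genes (84.4%) had a lower mean in phd3 null and 5 had a higher one, where 50.6% of all tested genes were lower. The median difference was -0.21, against -0.01 over all tested genes, and it shrank to -0.09 on removing either array 2 of the phd3 null group or array 3 of the wild type. Without pair 3, 24 of 32 genes were lower and the median was -0.16. The pairs gave a weaker count than the means did. Within pairs 1 to 3 there were 17, 21 and 21 of 32 genes lower, with medians of -0.03, -0.23 and -0.26. Lower in all 3 pairs were 5 genes (Atf4, Atf5, Hspa5, Pdia3 and Canx), where 13% of tested genes were. Higher in all 3 pairs were 2 genes, Eif2ak3 and Atf6, where 12.7% of tested genes were. Every phd3 null sample lay below every wild-type sample for 1 of 32 genes, Atf5, where 3.02% of tested genes did so. The opposite order held for 0 of 32 genes, where it held for 3.9% of tested genes.

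The level of the whole set on an array was summarised as the median, over the 32 genes, of each gene's deviation from its mean over the 6 arrays. It was -0.17, -0.16 and 0.11 in phd3 null samples 1 to 3, against -0.01, 0.07 and 0.30 in wild-type samples 1 to 3. The phd3 null sample was lower in every pair, but phd3 null sample 3 lay above wild-type samples 1 and 2. The SD between samples of 1 genotype, which includes the differences between pairs, was 0.16. Within pairs 1 to 3 the level differed by -0.16, -0.23 and -0.19, a mean of -0.19 with an SD over the pairs of 0.03. The level over all tested genes differed by 0.02, -0.005 and 0.04. These are differences between array medians, and the small SD depends on that choice. The median of the gene differences within pairs varied more, at -0.03, -0.23 and -0.26. Since the arrays measured whole samples, fewer cells of a type and less RNA per cell cannot be told apart. The NK cell marker sum was also lower in the phd3 null sample of every pair, and its part in the lower count was not tested.

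**Figure D1:**
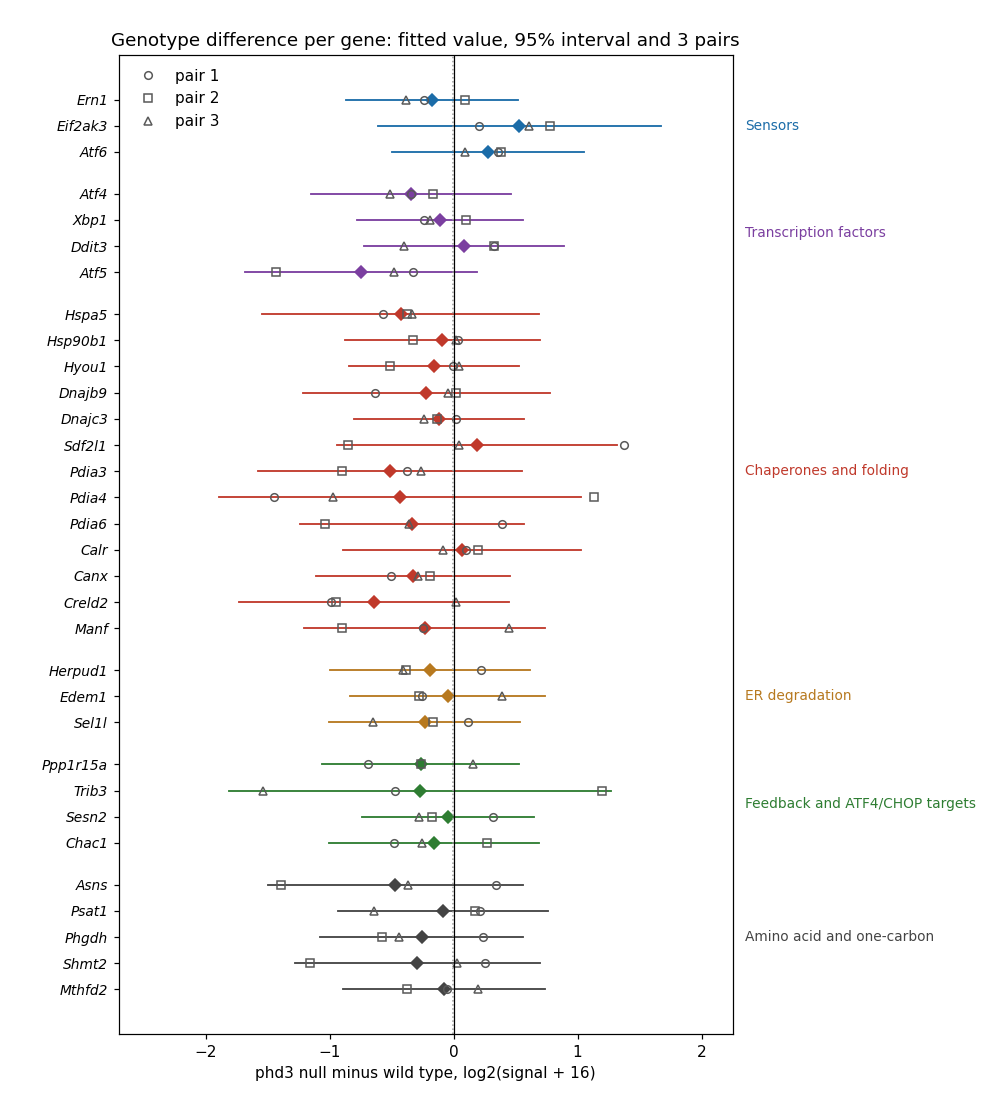
Difference between phd3 null and wild type for each of the 32 genes on log2(signal + 16). Diamonds are the limma values, bars their 95% intervals without the block, open symbols the differences within pairs 1 to 3, and the dotted line the median of all tested genes. All 32 bars cross 0, and 27 diamonds lie below it.

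The sensors went in both directions, with a median of 0.28. Eif2ak3 and Atf6 had higher means in phd3 null and Ern1 a lower one. Eif2ak3, which encodes PERK, had signals of 277.7, 581.6 and 996.0 in phd3 null samples, against 239.4, 332.5 and 647.0 in wild-type samples. It was higher in phd3 null in each pair, while the genotypes overlapped because signal differed more between pairs than within them. The difference was 0.53 (SE 0.51, 95% interval -0.61 to 1.67), and with the pair as a block the interval ran from 0.04 to 1.02 (limma, adjusted p = 0.8795). Atf6, the cleaved sensor, had signals of 154.6, 192.0 and 236.2 in phd3 null samples, against 117.2, 143.7 and 220.9 in wild-type samples, a difference of 0.28 (SE 0.34). Its second probe set above the filter gave -0.41, so the direction for Atf6 depends on the probe set. Ern1, which encodes IRE1, stood at 250.9, 266.5 and 177.9 in phd3 null samples, against 298.8, 248.9 and 237.3 in wild-type samples. Its difference was -0.18 (SE 0.31), and its other probe sets above the filter gave -0.34 and -0.59.

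Among the transcription factors, Atf4 and Atf5 were lower in every pair by their brightest probe sets. Xbp1 and Ddit3 had small mean differences, with pairs on both sides of 0. Atf4 encodes the factor made when eIF2-alpha is phosphorylated. Its signals were 2044.5, 1659.8 and 2458.5 in phd3 null samples, against 2594.9, 1865.8 and 3515.0 in wild-type samples, with overlapping groups. The difference was -0.34 (SE 0.36, 95% interval -1.15 to 0.46). The second bright probe set gave -0.23 and was lower in 2 of 3 pairs, with pair 2 at 1212.1 in phd3 null against 1178.4 in wild type. The probe set used for Atf4 has an ID ending in _x_at, which Affymetrix gives to sets with probes that may also bind other transcripts.

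Atf5, a related factor whose mRNA is likewise translated under eIF2-alpha phosphorylation, had signals of 69.0, 28.4 and 58.6 in phd3 null samples, against 90.8, 103.6 and 88.2 in wild-type samples. All 3 phd3 null values lay below all wild-type values, but the probe set was dim, with the median signal of an array between 49.4 and 64.2. The difference was -0.75 (SE 0.42, 95% interval -1.68 to 0.19), the lowest value among the 32 genes. Xbp1 stood at 1076.7, 1433.5 and 1207.8 in phd3 null samples, against 1269.9, 1333.1 and 1383.8 in wild-type samples. The difference was -0.11 (SE 0.30), and the other 3 probe sets gave 0.09, -0.04 and -0.19. Ddit3, which encodes the stress factor CHOP, stood at 406.8, 508.2 and 538.5 in phd3 null samples, against 321.5, 402.6 and 715.6 in wild-type samples. Ddit3 was higher in phd3 null in pairs 1 and 2 and lower in pair 3, with a difference of 0.08 (SE 0.36). Its second probe set gave -0.16.

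**Figure D2:**
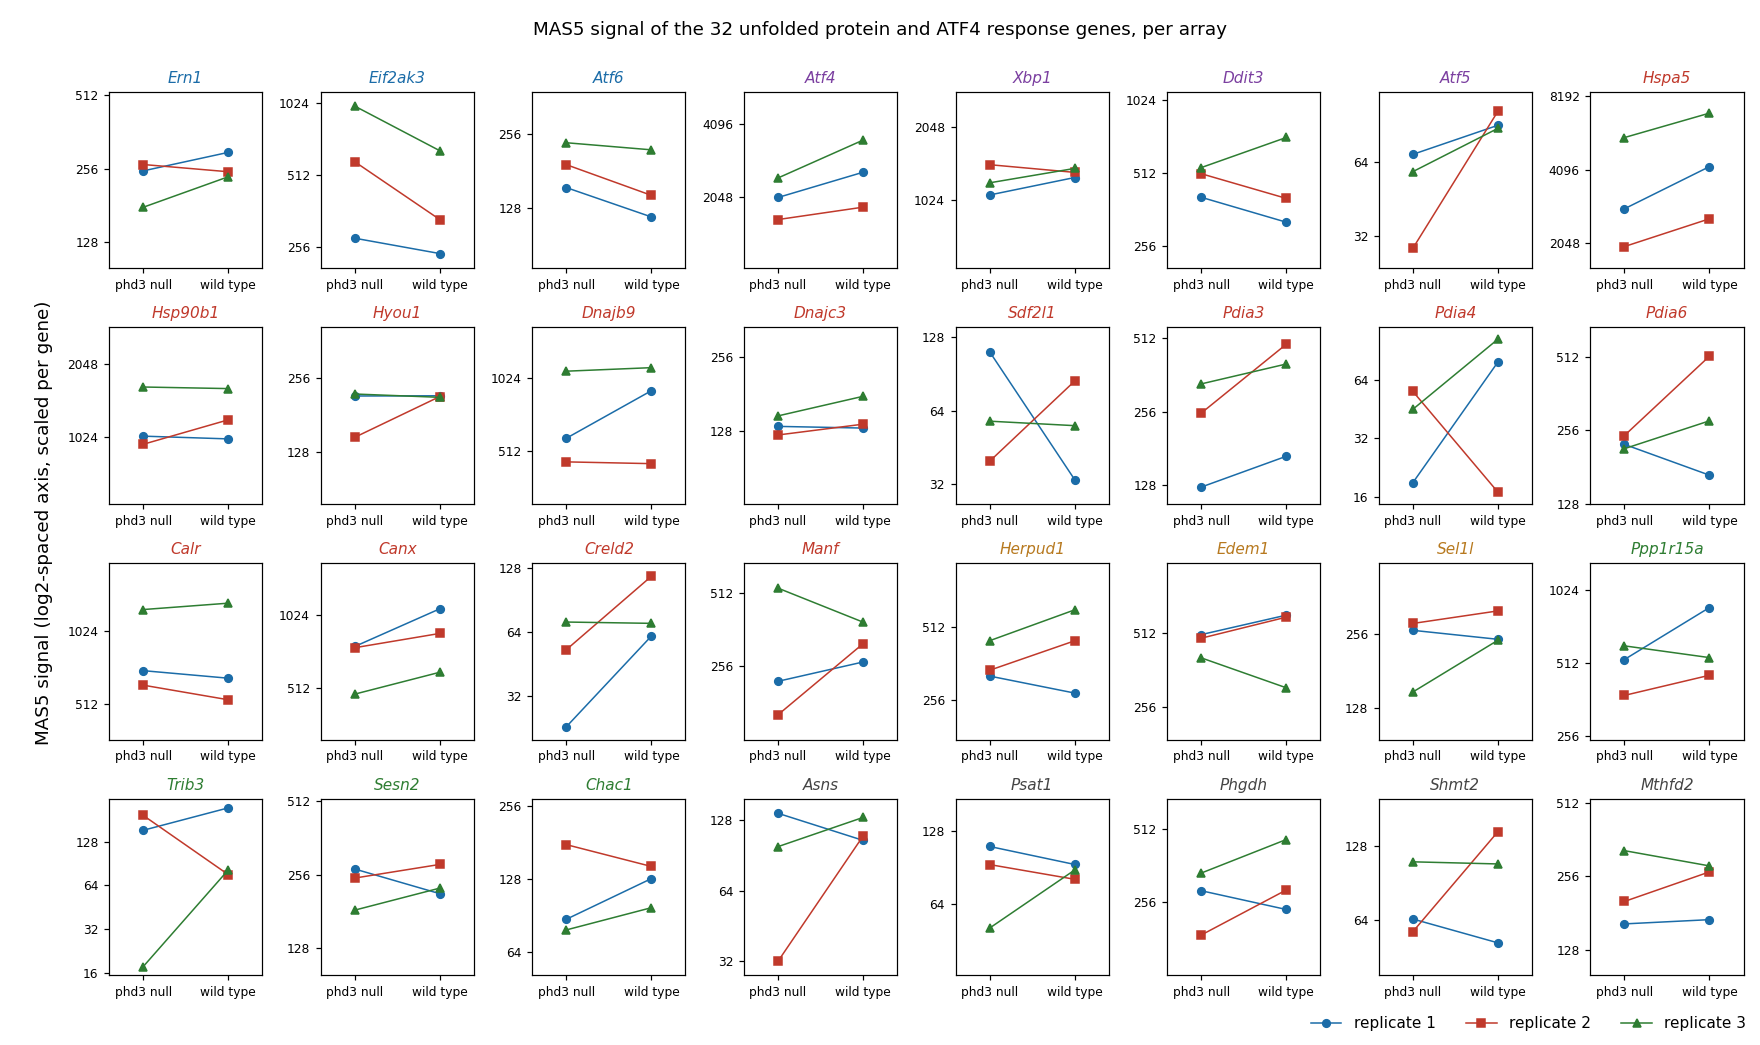
MAS5 signal of each gene on each array, phd3 null at the left and wild type at the right of each panel, on a log2-spaced axis scaled per gene. Lines join same-numbered samples, and title colours mark the role groups. For Hspa5 the 3 lines are nearly parallel and far apart, from 1984.2 in phd3 null sample 2 to 6998.0 in wild-type sample 3.

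Of the 13 chaperones and folding enzymes, 11 had a lower mean in phd3 null, with a median of -0.23 and pair medians of -0.25, -0.38 and -0.09. On removing array 1 or 2 of the phd3 null group the chaperone median became -0.14 or -0.06, and on removing array 3 of the wild type, -0.07. Hspa5 encodes BiP, the ER Hsp70 chaperone that also holds the sensors inactive. Its signals were 2834.6, 1984.2 and 5556.0 in phd3 null samples, against 4222.6, 2579.4 and 6998.0 in wild-type samples. Hspa5 was lower in phd3 null in every pair, by 0.57, 0.38 and 0.33 log2 units, while the pairs themselves differed by up to 1.46. The difference was -0.43 (SE 0.50, 95% interval -1.54 to 0.69). With the pair as a block the interval narrowed to -0.88 to 0.02 (limma, adjusted p = 0.8832). Another probe set gave -0.44, and the remaining one, ending in _x_at, gave 0.10.

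Hsp90b1, the ER Hsp90 chaperone, had probe sets that differed in pattern. Its brightest stood at 1035.3, 958.5 and 1646.7 in phd3 null samples, against 1008.7, 1207.5 and 1622.3 in wild-type samples, a difference of -0.09 (SE 0.35) with 1 of 3 pairs lower. Its second probe set gave -0.34 and was lower in all 3 pairs. Pdia3, a disulfide isomerase that works with the lectin chaperones on glycoproteins, had signals of 125.8, 253.0 and 333.4 in phd3 null samples, against 168.3, 485.0 and 402.3 in wild-type samples. By this probe set Pdia3 was lower in phd3 null in each pair, with a difference of -0.51 (SE 0.47). Its second probe set gave -0.64 and was lower in 2 of 3 pairs, with pair 1 at 82.2 in phd3 null against 20.6 in wild type. Creld2, an ER stress-induced gene with a role in disulfide exchange, was dim at 23.0, 52.9 and 71.3 in phd3 null samples, against 61.3, 117.0 and 70.3 in wild-type samples. The difference was -0.64 (SE 0.48), with pairs 1 and 2 at -0.99 and -0.95 and pair 3 at 0.02.

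Of the lectin chaperone genes, Canx (calnexin) was at -0.33 (SE 0.35) and lower in every pair, and Calr (calreticulin) was at 0.07 (SE 0.43). The other probe sets gave -0.42 and -0.02 for Canx, and -0.002 and 0.11 for Calr. The contrast between these genes was not tested. Pdia4 and Pdia6, further disulfide isomerases, gave -0.43 (SE 0.65) and -0.33 (SE 0.40), each with pairs on both sides of 0. For Dnajb9 and Dnajc3, J-domain partners of BiP, the values were -0.22 and -0.12. The exchange factor gene Hyou1 gave -0.16 and the neurotrophic factor gene Manf gave -0.23. Sdf2l1, a further BiP-associated gene, gave 0.19 (SE 0.50), with pair values from -0.85 to 1.37. The probe sets used for Hyou1 and Canx end in _s_at, a mark of probes shared between transcripts, and the other Hyou1 set above the filter gave 0.40.

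Many of the chaperone promoters hold an element of the ER stress response. The genes were chosen by their part in the same response, so its frequency among them is a description and no independent result. The ER stress response element (ERSE), bound by ATF6 together with NF-Y, was searched as CCAAT and CCACG with 9 bases between them, on both strands of RefSeq promoter windows (GRCm38.p6, 250 bases before to 50 after the start site), which 29 of the 32 genes had. It was present in 0.119% of all 32851 windows and in the windows of 7 of the 32 genes, all of them among the 11 chaperones and folding enzymes with a window. Dnajb9, Pdia3, Pdia4 and Sdf2l1 had a window without it. The sites are shown with 10 bases on either side, in the direction in which the motif reads, with the fixed letters of the motif in capitals and none overlapping another.
Hspa5 (chr2:34772015-34772053, plus strand): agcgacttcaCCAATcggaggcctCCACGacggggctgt
Hsp90b1, near site (chr10:86705523-86705561, plus strand): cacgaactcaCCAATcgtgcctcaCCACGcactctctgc
Hsp90b1, far site (chr10:86705628-86705666, minus strand): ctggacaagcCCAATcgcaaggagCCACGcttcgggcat
Calr (chr8:84847065-84847103, plus strand): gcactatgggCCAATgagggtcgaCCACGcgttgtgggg
Canx (chr11:50325790-50325828, minus strand): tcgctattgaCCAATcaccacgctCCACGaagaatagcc
Pdia6 (chr12:17266481-17266519, plus strand): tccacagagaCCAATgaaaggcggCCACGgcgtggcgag
Dnajc3 (chr14:118937817-118937855, plus strand): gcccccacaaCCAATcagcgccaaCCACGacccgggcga
Creld2 (chr15:88819510-88819548, minus strand): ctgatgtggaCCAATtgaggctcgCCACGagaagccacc

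The Hspa5 site lay 47 to 65 bases upstream of the start site, and those of Calr 144 to 162 bases upstream. Of the 7 genes with the motif, 6 had a lower mean in phd3 null. The differences of the 7 genes ran from -0.64 (Creld2) to 0.07 (Calr) with a median of -0.33. The median of all 11 chaperones with a window, which include these 7, was also -0.33. Among the 22 genes with a window and no ERSE, 19 were lower and the median was -0.21. The difference between genes with and without the motif was not tested. A match of letters is a description and shows no binding in these cells.

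Both arrays of pair 3 stood above the other 4 for 12 of 32 genes, where 18.5% of tested genes did so, and below them for 4 of 32 genes, where 16.9% did so. Of the 12 genes, 6 were chaperones or folding enzymes (Hspa5, Hsp90b1, Dnajb9, Dnajc3, Calr and Manf), with Eif2ak3, Atf6, Ddit3, Herpud1, Phgdh and Mthfd2 besides. Calr, for example, was at 1254.9 in phd3 null sample 3 and 1332.9 in wild-type sample 3, against 535.3 to 704.7 on the other arrays. The 4 genes below were Ern1, Canx, Edem1 and Sel1l. For 30 of 32 genes the pair means differed from each other by more than the genotypes did, where this held for 84.8% of tested genes. The summed B cell markers given above were high on the same 2 arrays, as was the plasma cell list (6 genes, summed signal 1331.0 and 1040.9 against 409.5 to 886.5). Of the B cell list, Pax5 did not stand above the other arrays (124.1 and 135.6 against 5.8 to 165.5), and Cd79a, Cd79b, Ms4a1 and Cd22 did. Within the plasma cell list Sdc1, Irf4 and Tnfrsf17 stood above the other 4 arrays on both, and Prdm1, Jchain and Mzb1 did not. Prdm1 gave 133.5 and 126.1 (against 123.2 to 258.7) and Jchain 285.4 and 388.4 (against 137.7 to 499.8). Mzb1 gave 429.6 and 179.2 (against 66.4 to 189.5). The T cell sum was also higher on both arrays (581.9 and 459.0 against 120.8 to 385.4). Cd3d (242.7 and 160.7 against 6.2 to 85.0) and Cd3g stood above the other arrays there, and Cd3e, Cd5 and Cd247 did not. The monocyte sum was lower on both (9721.9 and 9527.7 against 13920.4 to 17209.6), as was Csf1r (3537.6 and 4048.6 against 8835.9 to 11088.3). Ly86 of the same list was higher on both (800.2 and 589.4 against 202.8 to 452.2). Ctss, Ccr2 and Cx3cr1 did not stand apart there, so the sum does not speak for the whole monocyte list. Hspa1a, which encodes a cytosolic heat shock protein, gave 1157.9 and 1175.1 on the arrays of pair 3, against 67.2 to 171.3 elsewhere. The part of any of these in the level of the chaperone genes was not tested.

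**Figure D3:**
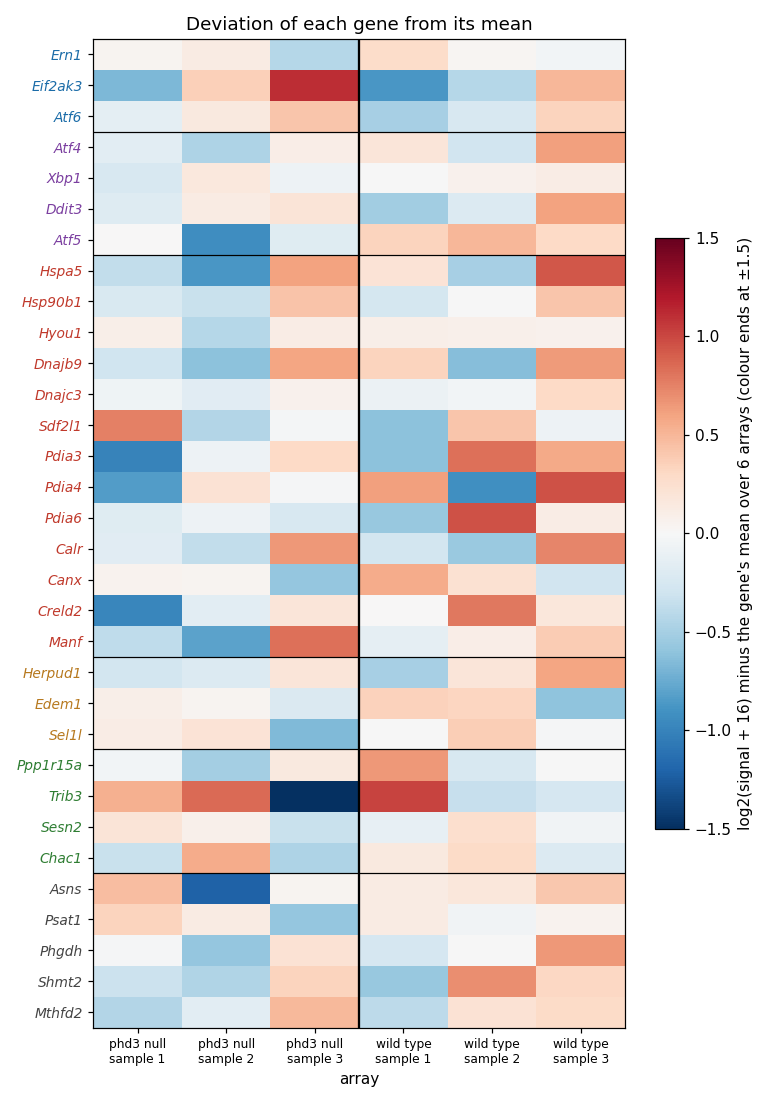
Deviation of log2(signal + 16) from each gene's mean over the 6 arrays, with phd3 null samples at the left, wild-type samples at the right and genes grouped by role. Hspa5, Dnajb9, Calr and Manf are red in sample 3 of both genotypes, so the pair is the clearer division in these rows, and Trib3 in phd3 null sample 3 lies past the end of the colour scale.

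ER degradation genes gave small differences, with a median of -0.19. Herpud1, which encodes a membrane component of the degradation complex, had signals of 321.5, 339.6 and 448.9 in phd3 null samples, against 273.8, 448.5 and 600.8 in wild-type samples. Its difference was -0.19 (SE 0.36), and its second probe set gave -0.23. The Herpud1 promoter held 2 searched motifs that do not overlap. They are shown because this gene is a target of both arms, ERSE-II being read as ATTGG and CCACG with 1 base between them (0.0365% of all windows, 1 of the 32 genes) and the ATF4 element CARE as TGATGNAA (3.97% of all windows).
Herpud1, ERSE-II (chr8:94386367-94386397, plus strand): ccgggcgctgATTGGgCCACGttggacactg
Herpud1, CARE (chr8:94386307-94386334, minus strand): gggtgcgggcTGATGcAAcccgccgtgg

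Edem1, a mannosidase-like factor that directs glycoproteins to degradation, stood at 505.0, 488.1 and 405.4 in phd3 null samples, against 606.9, 595.5 and 305.6 in wild-type samples. By this probe set Edem1 was lower in phd3 null in pairs 1 and 2 and higher in pair 3, with a difference of -0.05 (SE 0.35). Its second probe set gave 0.08 and the opposite direction in each pair. Sel1l, the partner of the ubiquitin ligase of this pathway, stood at 265.8, 283.6 and 148.4 in phd3 null samples, against 244.2, 319.3 and 242.0 in wild-type samples. The difference was -0.23 (SE 0.34), and 1 of its 4 probe sets above the filter was positive at 0.30.

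Feedback and stress-target genes gave differences from -0.27 to -0.05. Ppp1r15a encodes GADD34, the phosphatase subunit that reverses eIF2-alpha phosphorylation. Its signals were 529.3, 377.1 and 602.1 in phd3 null samples, against 864.8, 456.1 and 538.9 in wild-type samples, a difference of -0.27 (SE 0.35). Trib3, a pseudokinase gene induced by ATF4 and CHOP, had signals of 153.8, 195.0 and 17.6 in phd3 null samples, against 219.6, 76.1 and 81.8 in wild-type samples. Its difference of -0.27 (SE 0.69) rested on phd3 null sample 3 and became 0.56 without it. Sesn2, which encodes an mTORC1-restraining leucine sensor, stood at 270.4, 248.3 and 183.4 in phd3 null samples, against 214.2, 282.4 and 225.8 in wild-type samples, a difference of -0.05 (SE 0.31). Chac1, a glutathione-degrading enzyme gene, gave -0.16 (SE 0.38) with overlapping groups.

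The means of the amino acid and one-carbon genes were lower in phd3 null for 5 of 5, but for none of these brightest probe sets were all pairs lower. Of the 6 further probe sets above the filter, 3 were lower in all 3 pairs, those of Asns, Mthfd2 and Psat1. Their median of -0.26 became -0.03 or -0.43 on removing array 2 or 3 of the phd3 null group. On removing array 1, 2 or 3 of the wild type it became -0.45, -0.13 or -0.08. In pair 1 the median was 0.24, against -0.57 and -0.36 in pairs 2 and 3. Asns, asparagine synthetase, stood at 137.1, 31.9 and 98.7 in phd3 null samples, against 105.0, 109.5 and 131.6 in wild-type samples. The low value of phd3 null sample 2 carried the difference of -0.47 (SE 0.46), which became 0.02 without that sample. The second Asns probe set, ending in _x_at, had its lowest value in phd3 null sample 3 instead, gave -0.34 and was lower in all 3 pairs. Phgdh, the first enzyme of serine synthesis, stood at 285.8, 188.1 and 337.7 in phd3 null samples, against 239.4, 287.8 and 463.5 in wild-type samples, a difference of -0.26 (SE 0.36). Its 4 probe sets all end in _x_at, and 1 of them gave 0.54 and was higher in all 3 pairs. Mthfd2, the mitochondrial folate dehydrogenase, stood at 163.4, 202.0 and 326.4 in phd3 null samples, against 170.1, 267.1 and 282.6 in wild-type samples, a difference of -0.08 (SE 0.36), and its second probe set gave -0.36. Psat1, the serine synthesis transaminase, gave -0.09 (SE 0.38) and -0.94 by its other probe set. Shmt2, mitochondrial serine hydroxymethyltransferase, gave -0.29 (SE 0.44) by a set ending in _x_at.

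The ATF4 element CARE was found in the windows of 4 of the 32 genes, Asns, Chac1, Trib3 and Herpud1. The sites of Asns and Chac1 are shown because they lie upstream of the start site of ATF4 targets, while that of Trib3 lies downstream and is not shown. The promoter element UPRE, searched as TGACGTGG, was in 0 of the 32 genes' windows and in 0.676% of all windows.
Asns, CARE (chr6:7693215-7693242, minus strand): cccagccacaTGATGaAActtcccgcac
Chac1, CARE (chr2:119351039-119351066, minus strand): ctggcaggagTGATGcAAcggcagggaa

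Set side by side, the sensors had a median difference of 0.28, the chaperones -0.23 and the amino acid genes -0.26. The sensor median became 0.42 or 0.11 on removing array 1 or 3 of the phd3 null group, and 0.09 or 0.51 on removing array 1 or 3 of the wild type. The median level of the 3 sensors was -0.15, 0.14 and 0.42 in phd3 null samples 1 to 3, against -0.50, -0.24 and 0.33 in wild-type samples 1 to 3. On every array this median was the value of Atf6 by its brightest probe set. The second Atf6 set above the filter gave -0.41, so the sensor level rests on 1 probe set. The chaperone level was -0.23, -0.34 and 0.18 in phd3 null samples, against -0.09, 0.08 and 0.38 in wild-type samples. The amino acid gene level was -0.02, -0.46 and 0.21 in phd3 null samples, against -0.26, 0.18 and 0.31 in wild-type samples. The sensor level was higher and the chaperone level lower in the phd3 null sample of each pair, while the amino acid level was higher in phd3 null in pair 1 and lower in pairs 2 and 3. The SD between samples of 1 genotype was 0.36 for sensors, 0.26 for chaperones and 0.32 for amino acid genes. All 3 medians were smaller than that spread, which includes the differences between pairs. Within pairs the level differed by a mean of 0.28 ± 0.16 for sensors, -0.25 ± 0.14 for chaperones and -0.16 ± 0.44 for amino acid genes (SD, n = 3 pairs), and the difference between the groups of genes was not tested.

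**Figure D4:**
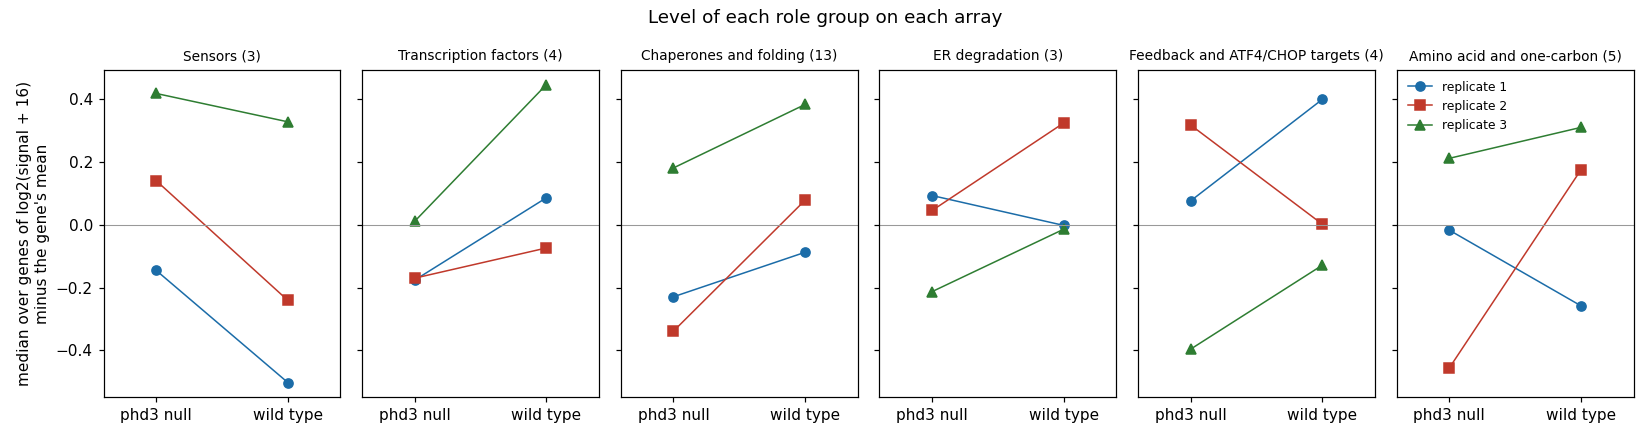
Level of each role group on each array, as the median over its genes of log2(signal + 16) minus the gene's mean, with phd3 null at the left and wild type at the right of each panel and lines joining same-numbered samples. Sensor lines slope down and chaperone lines slope up towards wild type in all 3 pairs, and the amino acid lines cross. The sensor lines are those of Atf6, the middle value of the 3 sensors on every array. Numbers in brackets count the genes.

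Across 79 probe sets of the 32 genes, 65 passed the filter and 50 of these were lower in phd3 null. Several of them measure the same gene, so the count is not one of separate genes. Over all tested genes, with 1 probe set each, 50.6% were lower. Of the 21 genes with more than 1 probe set above the filter, 10 had all of them in 1 direction. The other 11 genes had probe sets on both sides of 0.

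Other genes of the pathway were taken from lists made by role, with 106 of 113 listed genes having a probe set and 92 passing the filter. Of the 106 genes, 60 were lower and 46 higher in phd3 null, and the median was -0.04. Over all named genes of the array 48.0% were lower. In limma 0 of the 92 tested genes passed in either fit, where 0% of all tested genes were called without the block and 0.0182% with it. At an unadjusted p under 0.05 there was 1 of 92 without the block and 7 of 92 with it, where the tested genes had 1.74% and 5.62%. Other ATF4 targets were lower in 19 of 28 cases (median -0.12), and other ER folding genes in 8 of 21 cases (median 0.17). ER degradation genes outside the 32 were lower in 11 of 20 cases (median -0.05), signalling genes in 13 of 21 (median -0.04) and ER entry genes in 9 of 16 (median -0.04).

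The 4 other ATF4 targets of smallest p all had lower means in phd3 null, while further amino acid transporters of the list ran from -0.53 (Slc3a2) to 0.78 (Slc1a5). Slc7a11, the cystine transporter that is also an NRF2 target, had signals of 3745.2, 1896.5 and 889.9 in phd3 null samples, against 5829.4, 3392.9 and 3093.6 in wild-type samples. It was lower in every pair, with overlapping groups and a difference of -1.08 (SE 0.52). In limma it did not pass without the block (adjusted p = 0.9996) or with it (adjusted p = 0.2899). Slc7a5, the large neutral amino acid transporter, was dim at 19.0, 10.8 and 64.8 in phd3 null samples, against 90.4, 70.3 and 129.9 in wild-type samples, and its groups did not overlap. Its difference was -1.38 (SE 0.56, limma adjusted p = 0.9996, unadjusted p = 0.0354). The tRNA synthetase genes Lars and Tars gave -1.04 (SE 0.60) and -0.61 (SE 0.39), each lower in every pair but unevenly. The pair values were -0.09, -0.54 and -2.49 for Lars and -0.47, -0.03 and -1.31 for Tars. Lars signal was 14.0 in phd3 null sample 3. Other synthetase genes of the list ran from -0.67 (Mars1) to 0.29 (Sars).

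In the remaining lists the genes of smallest p did not pass either (limma adjusted p = 0.9996 for each without the block). For signalling these were Nupr1 at -0.72, Atf3 at -0.38 and Bcl2l11 at -0.40, each lower in every pair, and Eif2ak1, the heme-regulated eIF2-alpha kinase gene, at 0.58 and higher in every pair. For ER degradation they were Erlec1 at 0.71, Rnf5 at -0.80, Vcp at -0.34 and Ube2j2 at -0.29. For ER folding they were Txndc11 at -1.08, Mogs at 0.54, Nucb2 at -0.40 and Tmed10 at 0.42. For ER entry they were Sec11a at -0.41, Ssr2 at -0.21, Spcs3 at 0.21 and Ssr4 at 0.16.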

How the data were processed

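Per the submitters' processing notes, the deposited values are MAS5 signal intensities, 1 linear value per probe set and array. Their MAS5 version is not given in those sources. Of 45101 probe sets, 64 controls were left out, and 34945 of the others had 1 symbol in the platform annotation, 932 had several and 9160 were unnamed here. Each of the 18193 genes was represented by its probe set of highest mean log2(signal + 16). Genes with a mean under the median of all probe sets (5.90) were not tested. Detection calls were not used, and the number of arrays limits the precision.

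Genotypes were compared with limma 3.58.1 in R 4.3.3 (lmFit, eBayes with a trend, two-sided) over 10960 genes with Benjamini-Hochberg adjustment and no block. The code was tested on simulated data. Alternatives were the pair number as a block, pseudocounts, filters, probe set rules, quantile normalization, no trend and arrays left out. Deviations of same-numbered samples correlated at 0.292, 0.151 and 0.474 across genes, against -0.363 to 0.177 for other numbers. The same-numbered samples carry 1 code in the labels and were treated as pairs.

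The genes, lists and tests were chosen with earlier results of these data known. All 32 genes are named. Signals of every array are given for Hspa5, Atf4, Xbp1, Ddit3 and, per role group, the 2 genes of highest mean signal and the 2 of smallest p, and up to 4 genes of smallest p are named per other list. Marker lists were summed over signals. Further sums, as ranges over phd3 null and then wild-type samples, were 25434.3 to 50595.3 and 42470.9 to 56191.1 for neutrophils (9 genes), 9721.9 to 17209.6 and 9527.7 to 17095.7 for monocytes (5 genes), 172.3 to 581.9 and 120.8 to 459.0 for T cells (5 genes), 112.6 to 244.9 and 137.1 to 367.9 for eosinophils (5 genes), 331.6 to 622.3 and 352.1 to 458.0 for platelets (5 genes), and 750.1 to 6831.0 and 2610.2 to 5977.5 for erythroid cells (3 genes). Promoter sequences are those of RefSeq (GRCm38.p6).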

Additional observations from a re-analysis of the deposited data

How the results depend on the processing

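With 3 arrays per genotype, the 95% interval reached from 0.67 to 1.54 log2 units on either side of the difference over the 32 genes. None of the genes tested, of the 32 or of the other pathway genes, passed in limma under any of the 18 alternatives, 1 of which, probe sets ending neither in _s_at nor _x_at, was chosen after seeing the data. Of the 32 genes, 25 were tested with the stricter filter, 30 with the mean of all probe sets, 31 with the added rule and 32 otherwise. Over all genes, limma called 0, against 2 with the replicate block, 1 without pair 3, 46 with the replicate block and without pair 3, 1 with the replicate block and quantile normalization, and 0 to 1 when single arrays were left out. The replicate block changed no call of the 32 genes. The count of genes with a lower mean was 27, against 24 without pair 3, 23 with the mean of all probe sets, 25 with the added probe set rule, and 21 to 28 when single arrays were left out. The median of the 32 genes then ran from -0.27 to -0.09, that of the chaperones from -0.33 to -0.06, that of the amino acid genes from -0.45 to -0.03 and that of the sensors from 0.09 to 0.51. Among 384 values of single genes outside the settings that left out 1 array, 14 changed sign. With the mean of all probe sets these were Ddit3 at -0.0377, Edem1 at 0.0180, Hyou1 at 0.20, Pdia4 at 0.0609, Pdia6 at 0.14 and Sel1l at 0.0324. With the added probe set rule they were Hyou1 at 0.40 and Shmt2 at 0.54. Without pair 3, with or without the replicate block, they were Psat1 at 0.19, Sesn2 at 0.0700 and Trib3 at 0.36. Leaving out 1 array changed the sign of 31 of 192 values, in 19 genes, whose differences then ran from -0.82 to 0.018 for Asns, -0.24 to 0.45 for Calr, -0.48 to 0.0348 for Chac1, -0.15 to 0.40 for Ddit3, -0.59 to 0.0454 for Dnajb9, -0.19 to 0.0049 for Dnajc3, -0.36 to 0.11 for Edem1, -0.49 to 0.0587 for Herpud1, -0.33 to 0.093 for Hsp90b1, -0.25 to 0.0196 for Hyou1, -0.71 to 0.11 for Manf, -0.34 to 0.12 for Mthfd2, -0.70 to 0.0624 for Pdia6, -0.45 to 0.00386 for Phgdh, -0.27 to 0.18 for Psat1, -0.14 to 0.46 for Sdf2l1, -0.39 to 0.0414 for Sel1l, -0.15 to 0.11 for Sesn2 and -0.77 to 0.56 for Trib3. The cause of these changes was not tested.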
